A study of Mus musculus with 13 samples.

Results

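Endosomal trafficking genes were followed through the chromatin of sorted mouse microglia, the resident macrophages of the brain, by ATAC-seq, an assay that maps open chromatin through where a transposase can cut it. The genes were taken by symbol: every gene named Rab, Tbc1d, Vps, Snx or Ehd followed by a number, with all peaks up to 50000 bp from one of its transcription start sites. That gave 155 of the 13874 genes in the table and 529 of its 38620 peaks, namely 64 genes with Rab symbols, 31 Vps, 29 Snx, 28 Tbc1d and 3 Ehd genes. As symbols alone set membership, antisense transcripts (Rab10os, Rab11fip4os1 and Rab11fip4os2) were counted too, and the set can hold genes with other roles. A gene had between 1 and 18 peaks, with a median of 2, and 12 genes had no promoter peak. A further 26 peaks of these genes lay beyond that distance and were not used. Of the 529 peaks, 516 passed the filter on low counts and were tested, 13 did not, and all 155 summed gene loci were tested.

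Male C57BL/6J mice, 10 weeks old at the start, were injected intraperitoneally, given oral BLZ945 or its vehicle (20% HPβCD) daily for 5 days from 1 week later, and injected again 5 weeks after the first, 3 hours before collection at 15 weeks. Injections held PBS or 1 mg/kg LPS from E. coli O111:B4, a bacterial cell wall component sensed by Toll-like receptor 4, and BLZ945, given at 169 mg/kg per day, blocks CSF1R, on which microglia depend for survival. In the original arm, which got vehicle, PP mice received PBS then PBS, PL mice PBS then LPS, and LL mice LPS then LPS; in the repopulated arm, PBP, PBL and LBL mice received the same pairs of injections around BLZ945. PBL had 3 libraries and each other group 2. Each library was made from a pool of 2 animals, with 40000 cells sorted from each as DAPI- CD11b high CD45int Ly6C-, so the spread is between pools. Start-site peaks were present for 7 of 8 microglial markers (not Fcrls), with summed levels of 274 to 471 CPM, and for 0 of 5 neuronal and 0 of 5 monocyte and neutrophil markers. Peaks were present for 1 of 5 border macrophage markers (4.55 to 9.11 CPM) and 1 of 5 lymphocyte markers (10.6 to 19.3 CPM). Oligodendrocyte, astrocyte and endothelial lists each had 2 of 5 markers with a peak (19.4 to 33.4, 56.1 to 79.5 and 77.6 to 120 CPM). An open start site is not expression, and the part of other cells in the results was not tested.

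Libraries held 927840 to 2772688 counts in peaks, of which 1.37% to 1.45% lay in the peaks of these genes. PL 3_4 stood apart, with 53.2% of its counts in promoter peaks against 55.5% to 60.1% in the other 12 libraries, and the PL pair differed by 2.04 times counting noise (chi-square per degree of freedom) against 0.996 to 1.197 for the other pairs. PL 3_4 shared its isolation day with PP and PL 1_2 with PBP, while no other group was isolated on the day of PBL, of LL or of LBL, so that day and group cannot be told apart there. PP, PBP and PL were sorted on one instrument (Astrios) and PBL, LL and LBL on another (XDP). The counts of LBL 1_2 and LBL 3_4 differed within sampling noise (p = 0.665, chi-square test), and LBL results are given also with both libraries summed to 1. An animal number 4 appears in the names of both PBL 3_4 and PBL 4_5, which may therefore share a mouse.

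Rab proteins are small GTPases that mark membrane compartments: Rab5 and Rab21 early endosomes, Rab4 and Rab11 recycling routes, and Rab7 late endosomes and lysosomes. TBC1D proteins mostly switch Rabs off by speeding up GTP hydrolysis, sorting nexins bind phosphoinositides on endosomes, VPS proteins form complexes such as retromer, HOPS and ESCRT, and EHD ATPases reshape recycling membranes. In macrophages these routes carry Toll-like receptors, cytokines and engulfed material.

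Promoter sequences are given where the accessibility results turn on a start site. Sequences of 250 bases before the start are from RefSeq (GRCm38.p6), 5′ to 3′ on the gene's strand, with motif matches in capitals. Of the 155 genes, 116 had such a window. The first 2 windows lay under peaks that rose after LPS, the next 2 under peaks that fell in PL, and the last under a start site that was not called while peaks inside the same gene rose. None of the 6 motifs searched was found at Tbc1d22a. Capitals mark 2 GC boxes at Rab4b, an NF-kB match and 2 GC boxes at Rab11a, and an NF-kB match at Tbc1d14. At Rab11fip3 they mark, from the left, a CEBP match, a CRE and a GC box.
Tbc1d22a internal start, chr15:86277425-86277674, plus strand: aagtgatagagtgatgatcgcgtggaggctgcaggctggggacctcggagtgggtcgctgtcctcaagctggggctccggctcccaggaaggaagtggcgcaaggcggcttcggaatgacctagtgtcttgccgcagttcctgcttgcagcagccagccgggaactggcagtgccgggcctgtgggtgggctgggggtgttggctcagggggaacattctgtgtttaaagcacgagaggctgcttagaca
Rab4b, chr7:27178884-27179133, minus strand: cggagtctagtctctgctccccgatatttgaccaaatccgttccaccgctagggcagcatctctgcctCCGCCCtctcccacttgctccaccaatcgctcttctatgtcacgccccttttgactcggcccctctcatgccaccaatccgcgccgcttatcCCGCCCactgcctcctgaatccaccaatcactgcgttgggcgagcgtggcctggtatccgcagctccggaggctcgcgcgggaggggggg
Rab11a, chr9:64737757-64738006, minus strand: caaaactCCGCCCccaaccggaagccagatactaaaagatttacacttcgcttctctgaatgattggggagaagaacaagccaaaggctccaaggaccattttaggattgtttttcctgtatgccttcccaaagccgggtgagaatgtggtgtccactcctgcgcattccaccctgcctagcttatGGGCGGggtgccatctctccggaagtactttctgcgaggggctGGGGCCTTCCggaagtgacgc
Rab11fip3, chr17:26069519-26069768, minus strand: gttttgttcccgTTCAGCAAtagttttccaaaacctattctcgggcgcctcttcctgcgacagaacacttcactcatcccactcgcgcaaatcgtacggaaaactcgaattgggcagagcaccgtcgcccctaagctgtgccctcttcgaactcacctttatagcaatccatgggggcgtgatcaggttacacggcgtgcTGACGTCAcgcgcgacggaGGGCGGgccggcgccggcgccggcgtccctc
Tbc1d14, chr5:36582398-36582647, minus strand: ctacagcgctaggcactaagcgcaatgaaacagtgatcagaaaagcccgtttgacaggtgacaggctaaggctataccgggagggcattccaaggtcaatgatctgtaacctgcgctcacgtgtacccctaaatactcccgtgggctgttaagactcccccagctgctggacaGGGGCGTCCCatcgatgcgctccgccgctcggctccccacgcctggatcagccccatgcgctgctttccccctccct

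Motifs were searched on both strands: NF-kB, AP-1 (TGANTCA), PU.1 (GAGGAAGT), CEBP (TTGCNNAA), CRE (TGACGTCA) and the GC box (GGGCGG), and matches of different motifs could overlap. A GC box was found in 73.95% of the 119 windows of these genes that lay over a tested peak, in 61.81% of the 11379 windows of any gene over a peak and in 32.74% of all 32851 windows. An NF-kB match was found in 13.45%, 9.184% and 7.251%, an AP-1 match in 1.681%, 3.77% and 6.749%, and a CEBP match in 5.042%, 7.004% and 9.564%. The remaining motifs, PU.1 and CRE, were at 0.8403%, 2.856% and 2.441%, and at 1.681%, 3.102% and 1.546%. Of the 16 windows of these genes with an NF-kB match, 15 lay over peaks that were not called after the first LPS in either arm, and 1, at Rab11a, over a peak that fell in PL. Most windows lay over such uncalled peaks, 108 of the 119, and 13.89% of those 108 had an NF-kB match, near the 13.45% of all 119. A match describes letters only.

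Levels are compared here per kb of peak. The median over peaks of the mean over libraries was 51.2 CPM per kb at promoter peaks, 38.5 at intronic and 38.2 at intergenic ones. The highest start-site level was at Rab8a, a Rab of the exocytic route, with 166 CPM per kb, followed by Rab4b with 157 and Rab40c with 149. Among the lowest were a smaller peak 416 bp from a start of Vps8, a CORVET subunit, with 18.7 CPM per kb, and the start-site peak of Rab15, a recycling Rab, with 18.01. The peak over the Vps8 start itself was at 50.1. The peaks were split as in the whole table for promoters (36.5% against 36.4% of all peaks), with more in introns (39.3% against 31.4%) and fewer between genes (16.8% against 24.5%).

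After a first LPS in the original arm (PL against PP), peaks within or near Tbc1d14, Tbc1d2b, Snx18, Snx10 and Rab21 were among those that rose, and the start sites of Rab11a, Rab11fip3 and Rab37 among those that fell. Of 516 peaks 30 rose and 11 fell (7.95%) by edgeR's quasi-likelihood test at an adjusted p under 0.05, beside 7.46% of all 37516 tested peaks. Summed by gene, 14 of 155 loci rose and 4 fell (11.6%), beside 10.6% of all 13734 loci. Both shares were near those of all peaks and loci. The median log2 fold change was 0.04 over these peaks and 0.01 over all tested peaks. The called rises ran from 0.51 to 2.05 on the log2 scale and the falls from -0.59 to -1.35. They lay in 30 genes, none of which had peaks called in both directions. Without PL 3_4 only 10 rises and 0 falls were called, while without PL 1_2, which leaves the PL library that shares its day with PP, 43 rises and 29 falls were. Without PP 1_2 the count was 12 peaks and 5 loci, without PP 3_4 it was 17 and 11, and the loci were 5 without PL 3_4 and 30 without PL 1_2. Of the 41 peak calls 4 were kept under every alternative. DESeq2 called 11 of the 41 peaks and 8 of the 18 loci. Losses named below for single calls are mostly those on leaving out a library, and not each call that DESeq2 lost is listed. The summed level of the microglial marker start sites averaged 388 CPM in PP and 288 in PL. Cd3d, the one of 5 lymphocyte markers with a peak, was at 10.8 to 14.1 CPM in PP and 18.9 to 19.3 in PL. The part of these in the results was not tested.

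In repopulated microglia (PBL against PBP), the first LPS raised 39 of the 516 peaks and lowered 16 (10.7%), beside 9.96% of all peaks. Of the loci 10 rose and 3 fell (8.39%), beside 7.47% of all loci. The rises ran from 0.54 to 2.35 and the falls from -0.44 to -1.37 on the log2 scale, in 34 genes. Rab31 and Tbc1d1 had called peaks in both directions. Without PBP 1_2 the count was 22 peaks and 8 loci, and without PBP 3_4 it was 25 and 8. Without PBL 3_4 it was 7 loci and without PBL 4_5 it was 8. Of the 55 peak calls 14 were kept under every alternative. DESeq2 called 19 of the 55 peaks and 6 of the 13 loci. The summed oligodendrocyte markers (2 of 5 with a peak) were at 29 to 33.4 CPM in PBP and 20.2 to 23.5 in PBL, and the astrocyte markers (2 of 5) at 62.9 to 75.2 and 56.1 to 62.4. The microglial marker sum averaged 449 CPM in PBP and 287 in PBL, which were also sorted on different instruments and days, and the part of these in the results was not tested.

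The 2 LPS comparisons share no library. Of these genes' peaks, 15 were called in both with the same sign, 14 higher and 1 lower, which is 36.6% of the PL calls and 27.3% of the PBL calls, beside 39.3% and 29.4% of the calls among all peaks. None was called in opposite directions. Of the 41 peaks called in PL against PP, 38 (92.7%) had the same sign in PBL against PBP, and 85.0% did among all called peaks. Of the 55 peaks called in PBL against PBP, 51 (92.7%) had the same sign in PL against PP, and 88.4% did among all.

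**Figure D1:**
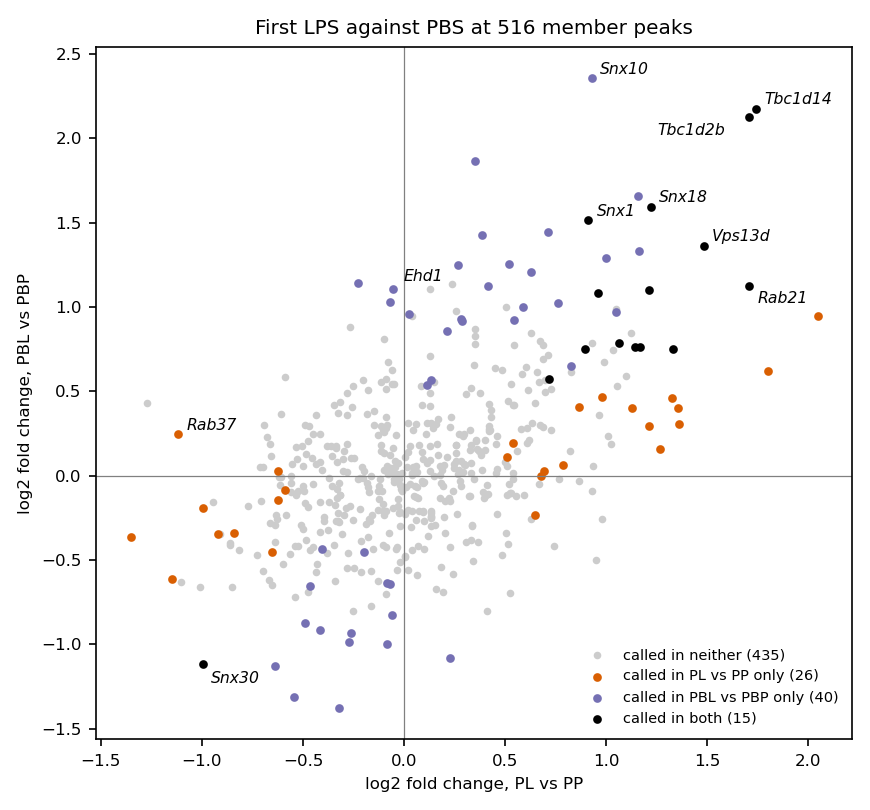
Log2 fold change of each of the 516 tested peaks after a first LPS in the original arm (x axis, PL vs PP) and the repopulated arm (y axis, PBL vs PBP); colour shows in which comparison a peak was called. The 15 black points were called in both and lie in the upper right apart from 1 Snx30 peak, and the labelled Ehd1 and Rab37 start sites were also called for a difference between the arms.

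The clearest rise in both arms was within Tbc1d14, which encodes a Rab11-binding TBC protein of recycling endosomes and autophagy. The peak lies in intron 3 of 13 (chr5:36538554-36539190, mm10, 6952 bp from the nearest start). It held 18.9 and 17.96 CPM in PP, 15.3 and 18.1 in PBP, 62.2 and 61.2 in PL, 63.2, 83.3 and 75.5 in PBL, 66.4 and 62.4 in LL, and 68.9 and 58.9 in LBL. All 9 LPS libraries were above all 4 PBS libraries. The rise was 1.74 ± 0.24 (log2 ± SE, 3.34-fold, adjusted p = 3.73e-08) in PL and 2.18 ± 0.20 (log2 ± SE, 4.52-fold, adjusted p = 2.72e-17) in PBL, and it was called under all 9 alternatives in each comparison. After the second LPS it was at 0.06 in LL against PL and -0.24 in LBL against PBL, neither of them called.

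Another Tbc1d14 peak, at an internal start (chr5:36563718-36564178), went the same way. Its levels were 14.7 and 19.96 CPM in PP, 17.7 and 19.6 in PBP, 36.8 and 43.7 in PL, 36.5, 45.3 and 37.4 in PBL, 42.9 and 44.3 in LL, and 49.4 and 48.7 in LBL, again with the LPS libraries above the PBS libraries. It rose by 1.21 and 1.10 on the log2 scale. The main start site, whose sequence is printed above, stood at 114 and 104 CPM in PP, 120 and 99.1 CPM in PL, 131 and 115 CPM in PBP and 119, 118 and 116 CPM in PBL, with log2 differences of 0.01 and -0.07 that were not called. Over its 13 peaks the locus rose by 0.52 in PL (adjusted p = 7.01e-05) and by 0.33 in PBL (adjusted p = 0.00293). The promoter peak's PL call was lost without PP 1_2 (adjusted p = 0.0893) and the PBL locus call without PBP 1_2 (adjusted p = 0.234) and within 1000 bp (0.15, adjusted p = 0.434).

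Tbc1d2b, a further TBC domain gene, rose in intron 2 of 12 (chr9:90242830-90243391, 12536 bp from the start). Libraries read 16.8 and 9.98 CPM in PP, 8.54 and 12.1 in PBP, 36.2 and 50.6 in PL, 40.7, 46.3 and 45.5 in PBL, 46.9 and 41.8 in LL, and 53.3 and 47.7 in LBL. The LPS and PBS libraries did not overlap, and the rises were 1.71 ± 0.29 (log2 ± SE, 3.27-fold, adjusted p = 5.82e-06) and 2.13 ± 0.25 (log2 ± SE, 4.37-fold, adjusted p = 1.03e-11). In PL 5 Tbc1d2b peaks were called higher, the most of any of these genes, and the locus rose by 0.86 (adjusted p = 8.51e-07). Summed within 1000 bp of the starts the locus was at -0.20, so the rise lay away from the start site. In PBL the locus rose by 0.31 (adjusted p = 0.0417), a call lost without PBP 1_2, PBL 3_4 or PBL 4_5 (adjusted p of 0.17 to 0.648) and with the sign turned when peaks within 10000 bp (-0.16) or 1000 bp (-0.23) were summed.

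**Figure D2:**
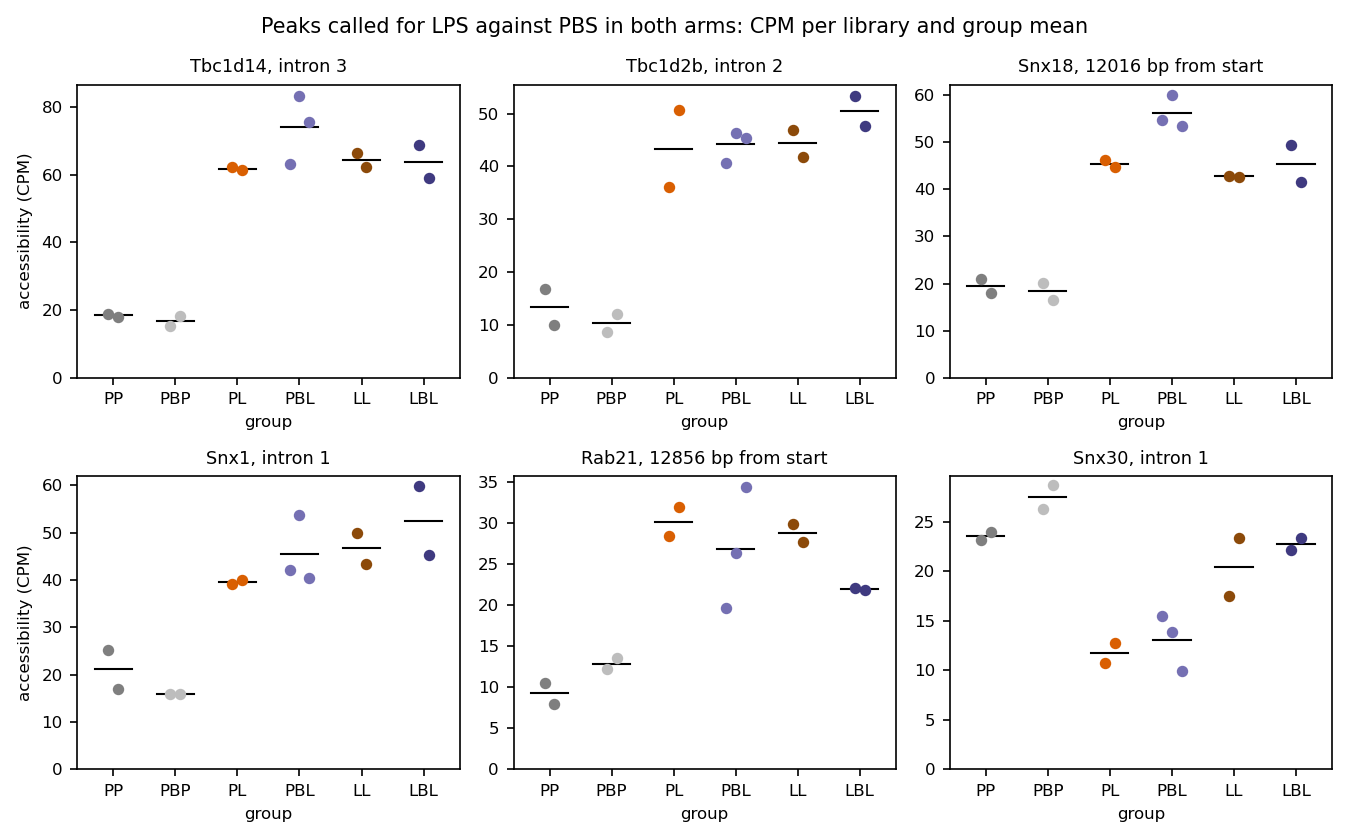
Accessibility in CPM (y axes, from 0) of 6 peaks in each of the 13 libraries, by group; points are libraries and bars group means. At the Tbc1d14 peak the 4 PBS libraries lie between 15.3 and 18.9 CPM and the 9 LPS libraries between 58.9 and 83.3, and at the Snx30 peak the PBS libraries lie above those of PL and PBL.

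Further TBC genes had peaks called in both arms. At Tbc1d22a a peak in intron 4 of 12 (chr15:86277420-86277810) covers the internal RefSeq start printed above. Its libraries held 10.5 and 26.9 CPM in PP, 27.5 and 29.4 in PBP, 37.9 and 46.9 in PL, 49.2, 49.96 and 46.2 in PBL, 44.9 and 46.3 in LL, and 53.9 and 44.7 in LBL. PP 1_2 was the lowest library by a wide margin, and the PL rise of 1.17 lost its call without PP 1_2 or PL 3_4 (adjusted p of 0.0567 to 0.288). The PBL rise was 0.77 (adjusted p = 0.00269), lost without PBP 1_2 (adjusted p = 0.114), while the main Tbc1d22a start was at -0.50 and -0.06 and was not called. By DESeq2 the Tbc1d22a rise in PBL was not called (adjusted p = 0.0576). Tbc1d8 rose 24171 bp from its start, by 0.72 and 0.57, called by DESeq2 in neither PL (adjusted p = 0.135) nor PBL (adjusted p = 0.207). Its levels were 29.5 and 39.9 CPM in PP, 38.4 and 36.2 in PBP, 45.6 and 68.2 in PL, 56.2, 49.04 and 61.2 in PBL, 51.9 and 41.04 in LL, and 45.5 and 43.7 in LBL. Its calls were lost without PP 1_2, PP 3_4 or PL 3_4 (adjusted p of 0.0638 to 0.558) in PL and without PBP 1_2, PBP 3_4 or PBL 4_5 (adjusted p of 0.137 to 0.183) in PBL. Tbc1d1, a GAP of glucose transporter traffic, had peaks called in both directions in PBL, at 1.44, 0.97 and -1.126 on the log2 scale, and each call was lost without either PBP library. Those of the peaks at 0 and -65 bp were also lost without PBL 3_4.

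**Figure D3:**
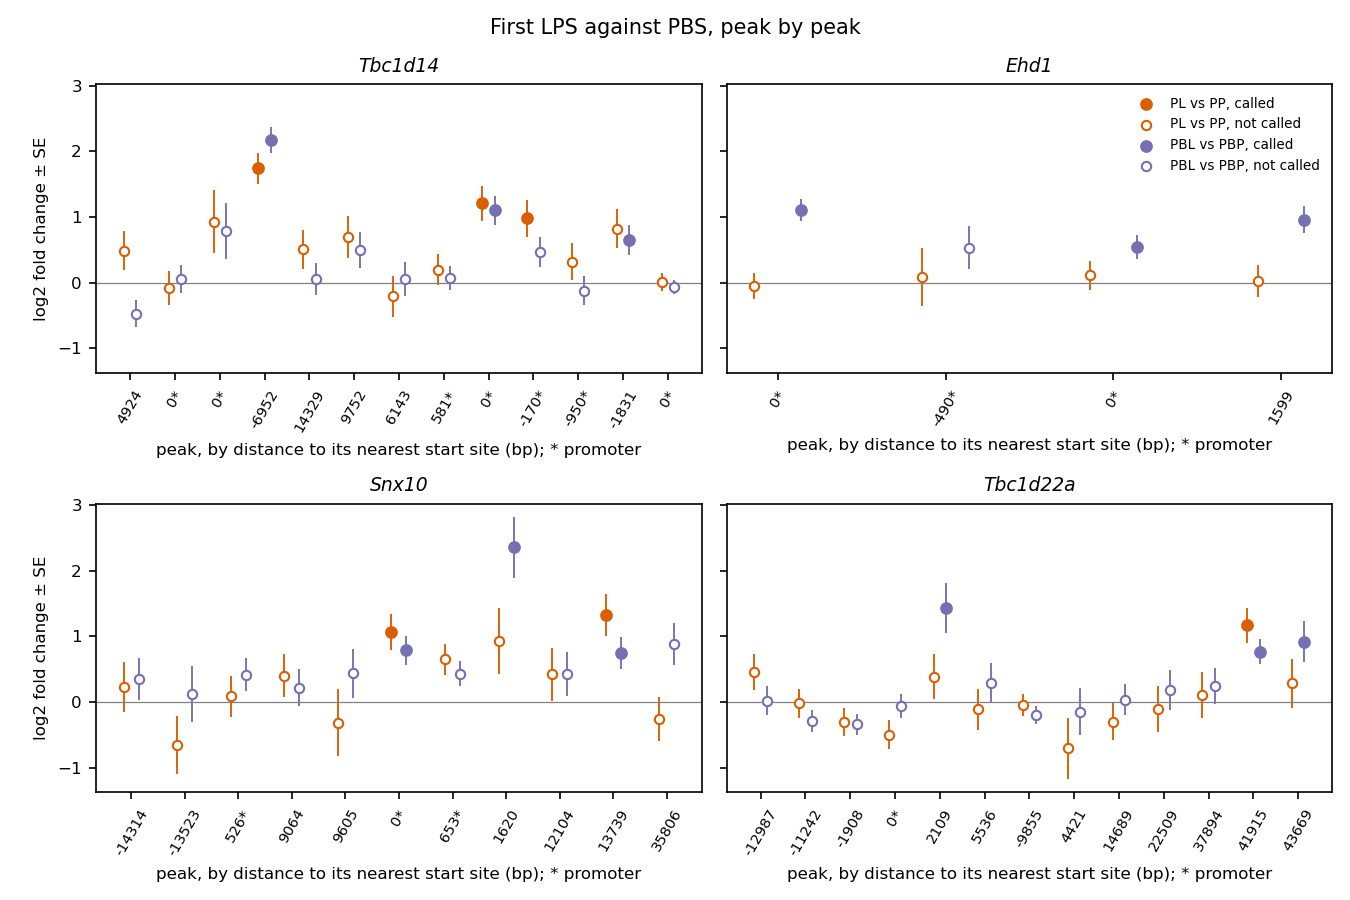
Log2 fold change ± SE after a first LPS for each tested peak of Tbc1d14, Ehd1, Snx10 and Tbc1d22a, in genome order along the x axis and labelled by the distance to the nearest start site in bp, with * for promoter peaks; filled points were called. Within Tbc1d14 the intron 3 peak at -6952 bp stands highest in both comparisons and the last peak, the main start, is at 0.01 and -0.07, and at Ehd1 only the PBL vs PBP points are filled.

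Among sorting nexins 4 genes with peaks higher in both arms were Snx18, Snx1, Snx10 and Snx24. Snx18, an SH3 and BAR domain protein of endocytosis, had 2 such peaks. The peak in its intron (chr13:113601110-113601625, 12016 bp from the start) held 21.04 and 17.96 CPM in PP, 20.1 and 16.6 in PBP, 46.2 and 44.7 in PL, 54.8, 60.1 and 53.5 in PBL, 42.9 and 42.7 in LL, and 49.4 and 41.6 in LBL. It rose by 1.22 ± 0.25 (log2 ± SE, 2.33-fold, adjusted p = 3.86e-04) and 1.59 ± 0.20 (log2 ± SE, 3.02-fold, adjusted p = 3.44e-10), with no overlap of LPS and PBS libraries. The other, an intergenic peak (chr13:113589501-113590016, 23625 bp away), held 29.5 and 31.9 CPM in PP, 34.2 and 30.2 in PBP, 48.6 and 70.3 in PL, 73.05, 75.4 and 59.8 in PBL, 62.4 and 63.6 in LL, and 46.8 and 41.6 in LBL. It rose by 0.96 and 1.08, and LBL lay below PBL by 0.64 on the log2 scale (adjusted p = 0.0102). That difference between LBL and PBL was not called by DESeq2 (adjusted p = 0.383). The PL call was lost without PP 1_2 or PL 3_4 (adjusted p of 0.0633 to 0.205) and the LBL call without PBL 3_4, LBL 1_2 or LBL 3_4 (adjusted p of 0.0751 to 0.278), and the latter was kept with the LBL libraries summed (adjusted p = 0.0349).

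Snx1, a BAR domain partner of retromer, rose in its intron 1 of 14 (chr9:66114104-66114890) by 0.91 and by 1.51 ± 0.22 (log2 ± SE, 2.85-fold, adjusted p = 5.42e-08). Libraries held 25.2 and 16.97 CPM in PP, 15.9 and 15.8 in PBP, 39.1 and 39.9 in PL, 42.1, 53.7 and 40.3 in PBL, 49.9 and 43.5 in LL, and 59.8 and 45.2 in LBL, so that every LPS library was above every PBS library. The PL rise was not called by DESeq2 (adjusted p = 0.0913). The PL call was lost without PP 3_4 or PL 3_4 (adjusted p of 0.0946 to 0.329). Snx10, which acts at endosomes and lysosomes, rose at an internal start peak (chr6:51544330-51544784) by 1.06 and 0.78. That peak held 11.6 and 23.95 CPM in PP, 20.7 and 23.4 in PBP, 28.5 and 45.8 in PL, 36.5, 39.3 and 37.4 in PBL, 36.9 and 32.2 in LL, and 36.4 and 30.5 in LBL. A peak in its intron 1 rose by 1.33 and 0.75, with 12.6 and 10.98 CPM in PP, 15.9 and 16.6 in PBP, 23.7 and 35.1 in PL, 26.7, 29.6 and 25.7 in PBL, 30.4 and 24.9 in LL, and 22.1 and 27.4 in LBL. In PBL a small peak 1620 bp from the start, with 1.22 and 3.77 CPM in PBP, reached 15.5, 13.9 and 9.53 CPM in PBL, a call lost without PBP 1_2 (adjusted p = 0.0743). By DESeq2 the rise at the internal start was called in neither PL (adjusted p = 0.0633) nor PBL (adjusted p = 0.122). The PBL rise of 0.75 at the intron peak was not called by DESeq2 either (adjusted p = 0.234). The Snx10 locus rose by 0.54 in PL (adjusted p = 0.00139) and 0.60 in PBL (adjusted p = 2.14e-05). The PL locus call was lost without PP 1_2 or PL 3_4 (adjusted p of 0.122 to 0.19). At the internal start the calls were lost without PP 1_2 or PL 3_4 (adjusted p of 0.351 to 0.385) in PL and without PBP 1_2 or PBP 3_4 (adjusted p of 0.0517 to 0.194) in PBL, and at the intron peak without PP 3_4 or PL 3_4 (adjusted p of 0.0927 to 0.18) and without PBP 1_2, PBP 3_4 or PBL 3_4 (adjusted p of 0.0989 to 0.256).

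Snx24 had 3 called peaks in PL, all in introns of the gene on chromosome 18, and the locus rose by 0.50 (adjusted p = 3.03e-04) with 0.23 in PBL, which was not called. The PL locus call was lost when peaks within 10000 bp (0.25, adjusted p = 0.18) or 1000 bp (0.08, adjusted p = 0.826) were summed. The one of its peaks called in both arms, 18382 bp from the start, held 8.41 and 17.96 CPM in PP, 13.4 and 12.1 in PBP, 25.5 and 33.02 in PL, 18.3, 24.1 and 22.00 in PBL, 29.9 and 24.9 in LL, and 23.4 and 24.4 in LBL. That peak was called by DESeq2 in neither PL (adjusted p = 0.0819) nor PBL (adjusted p = 0.304). It rose by 1.14, lost without PP 1_2 or PL 3_4 (adjusted p of 0.202 to 0.356), and by 0.76, lost without PBP 1_2, PBP 3_4, PBL 3_4 or PBL 4_5 (adjusted p of 0.106 to 0.279).

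Snx30, a BAR domain sorting nexin, held the one peak that fell in both arms, in intron 1 of 8 (chr4:59823494-59823953). It held 23.1 and 23.95 CPM in PP, 26.2 and 28.7 in PBP, 10.7 and 12.8 in PL, 15.5, 13.9 and 9.90 in PBL, 17.5 and 23.3 in LL, and 22.1 and 23.4 in LBL. The PL and PBL libraries were all below the PBS libraries, with differences of -0.996 (adjusted p = 0.0351) and -1.12 (adjusted p = 3.61e-04). DESeq2 did not call the PL difference (adjusted p = 0.123). The PL call was lost without PP 1_2, PP 3_4, PL 1_2 or PL 3_4 (adjusted p of 0.0844 to 0.185), and the PBL call was kept without each library. After a second LPS LBL was 0.86 above PBL on the log2 scale (adjusted p = 0.0365), a call lost without PBL 3_4, PBL 4_5, LBL 1_2 or LBL 3_4 (adjusted p of 0.0597 to 0.315) and with the LBL libraries summed (adjusted p = 0.0666). DESeq2 did not call that difference between LBL and PBL (adjusted p = 0.684). A further Snx30 peak 718 bp from the start fell in PBL by 1.37 on the log2 scale, called under all 9 alternatives.

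Among the Rabs, an intergenic peak 12856 bp from the start of Rab21 (chr10:115328447-115328943) rose in both arms. Rab21 acts in early endosomes and integrin uptake. Its libraries held 10.5 and 7.98 CPM in PP, 12.2 and 13.6 in PBP, 28.5 and 31.95 in PL, 19.7, 26.4 and 34.5 in PBL, 29.9 and 27.8 in LL, and 22.1 and 21.8 in LBL. The rises were 1.71 ± 0.34 (log2 ± SE, 3.27-fold, adjusted p = 1.65e-04) and 1.125 ± 0.26 (log2 ± SE, 2.18-fold, adjusted p = 7.01e-04), the latter lost without PBP 1_2 (adjusted p = 0.068). No LPS library was below a PBS library. The peak 31887 bp from Rab1a, a Rab of transport from the endoplasmic reticulum to the Golgi, held 13.7 and 21.96 CPM in PP, 20.7 and 21.1 in PBP, 29.6 and 36.7 in PL, 33.7, 36.1 and 35.6 in PBL, 34.4 and 35.01 in LL, and 31.2 and 38.6 in LBL, rising by 0.89 and 0.75. Its calls were lost without PP 1_2, PP 3_4 or PL 3_4 (adjusted p of 0.0565 to 0.409) in PL and without PBP 1_2 or PBP 3_4 (adjusted p of 0.0955 to 0.161) in PBL. Vps13d encodes a lipid transfer protein, and a peak 6483 bp from a start of it held 8.41 and 7.98 CPM in PP, 4.88 and 8.30 in PBP, 24.9 and 21.3 in PL, 16.9, 16.2 and 16.9 in PBL, 10.98 and 21.7 in LL, and 13.6 and 17.3 in LBL. There the rises were 1.48 and 1.36, and LPS and PBS libraries did not overlap. By DESeq2 the Rab1a rise was called in neither PL (adjusted p = 0.129) nor PBL (adjusted p = 0.13). At Vps13d DESeq2 did not call the PBL rise (adjusted p = 0.0693). The calls were lost without PP 1_2 or PP 3_4 (adjusted p of 0.0722 to 0.0924) in PL and without PBP 1_2 (adjusted p = 0.215) in PBL.

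Some changes were called in 1 arm only, which by itself does not show that the arms differ. Of 9 loci of early endosome and fast recycling Rabs 4 were higher in PL, beside 898 of all 13734 loci called higher: Rab21 (0.59), Rab4b of fast recycling (0.58), Rab31 (0.39) and Rab5a (0.37). DESeq2 called 1 of the 9. The Rab21, Rab31 and Rab5a calls were each lost without PP 1_2, PP 3_4 or PL 3_4 (adjusted p of 0.0635 to 0.337) and that of Rab4b without PP 1_2 (adjusted p = 0.175), and Rab31 was at -0.12 when summed within 1000 bp. The Rab4b start site, printed above, held 95.7 and 124 CPM in PP and 158 and 162 CPM in PL, and its rise of 0.54 was lost without PP 1_2 (adjusted p = 0.262). By DESeq2 the Rab4b start-site rise was not called (adjusted p = 0.0666). Further PL rises were at an intronic peak 19106 bp from a start of Snx13 (1.80) and at the loci of Tbc1d23 (0.40), Tbc1d5 (0.37), a Rab7 GAP bound to retromer, Rab18 (0.41), Snx14 (0.49), Snx18 (0.49) and Vps13d (0.35). The Snx13 call was lost without PP 3_4 (adjusted p = 0.0534). The Snx18 locus call was kept without each library but lost when peaks within 10000 bp (0.22, adjusted p = 0.268) or 1000 bp (0.45, adjusted p = 0.116) were summed. The calls of Tbc1d23, Tbc1d5, Rab18, Snx14 and Vps13d were each lost without PP 1_2, PP 3_4 or PL 3_4 (adjusted p of 0.0623 to 0.621). Summed within 10000 bp, the Rab21, Rab31 and Vps13d loci also lost their PL calls (adjusted p of 0.115 to 0.915), and within 1000 bp so did these 3 and Rab5a, Tbc1d23, Tbc1d5 and Snx14 (adjusted p of 0.0754 to 0.999).

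All 11 peaks called lower in PL lost the call without PL 3_4. At the Rab11a start PP held 71.5 and 71.9 CPM and PL 65.2 and 29.3 CPM, and the difference of -0.62 was -0.15 without PL 3_4, the call being lost without PP 1_2, PP 3_4 or PL 3_4 (adjusted p of 0.168 to 0.817). The start of Tbc1d13, a Rab35 GAP, was at -0.62, lost without PP 1_2, PP 3_4 or PL 3_4 (adjusted p of 0.121 to 0.504). The Rab11fip3 locus, a Rab11 effector, was at -0.68, lost without PP 1_2 or PL 3_4 (adjusted p of 0.256 to 0.371), and that of Vps39, a HOPS subunit, at -0.60, lost without PP 1_2, PP 3_4, PL 1_2 or PL 3_4 (adjusted p of 0.0864 to 0.235). Within 1000 bp both of these locus calls were lost (adjusted p of 0.0725 to 0.19), and that of Vps39 within 10000 bp too (adjusted p = 0.0563). At the Rab11fip3 start, printed above, the fall of 0.84 was lost without PP 1_2, PP 3_4 or PL 3_4 (adjusted p of 0.0917 to 0.421). Peaks of Rab3il1 (-1.35), Vps33a (-0.92), Snx29 (-0.99) and Vps26c (-1.15) were also called lower, and each call was lost without PP 1_2, PP 3_4 or PL 3_4 (adjusted p of 0.0528 to 0.432), that of Vps26c also without PL 1_2. The peak assigned to Vps33a, 7028 bp from its start, lay in exon 23 of 24 of another gene, Clip1. Of 190 tested promoter peaks of these genes 4 rose and 6 fell in PL (5.26%, beside 6.89% of all promoter peaks). Of 202 intronic peaks 17 rose and 3 fell (9.9%, beside 7.69%), and of 89 intergenic peaks 8 rose and 0 fell (8.99%, beside 7.95%).

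In PBL 9 rose and 6 fell among the 190 promoter peaks (7.89%, beside 4.49% of all promoter peaks). Of 202 intronic peaks 19 rose and 6 fell (12.4%, beside 13.7%). Of 89 intergenic peaks 9 rose and 4 fell (14.6%, beside 12.9%), and of 35 other peaks 2 rose and 0 fell (5.71%, beside 11.5%). Rab7b, a late endosome Rab that limits Toll-like receptor 4 signalling in macrophages, had 3 peaks called. Its start-site peak (chr1:131688563-131688919) held 5.26 and 3.99 CPM in PP, 4.88 and 4.53 in PBP, 10.7 and 10.1 in PL, 15.5, 18.97 and 11.7 in PBL, 4.99 and 9.66 in LL, and 11.7 and 16.8 in LBL. It rose by 1.66 ± 0.37 (log2 ± SE, 3.16-fold, adjusted p = 4.41e-04) and was called under all 9 alternatives. In PL the same peak was at 1.16 and was not called (adjusted p = 0.146), and the difference between the arms was 0.50 with an adjusted p of 0.834. The locus rose by 0.74 (adjusted p = 1.50e-04).

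Further PBL rises were at a Tbc1d9b start-site peak (0.93), at a small Rab3gap2 peak near its start (1.86) and at the loci of Rab27a (0.51), Rab30 (1.04), Rab3gap2 (0.39), Rab21 (0.39) and Snx18 (0.44). The call of Rab27a, a Rab of secretory lysosomes, was lost without PBP 1_2, PBL 3_4 or PBL 4_5 (adjusted p of 0.108 to 0.507), that of the Rab30 locus without any one of the 5 libraries (adjusted p of 0.0535 to 0.322), and that of the Tbc1d9b peak without PBP 1_2 (adjusted p = 0.0938). The Rab3gap2 and Rab21 loci lost theirs without PBP 1_2, PBP 3_4, PBL 3_4 or PBL 4_5 (adjusted p of 0.0568 to 0.429), and the Rab3gap2 peak without PBP 1_2 (adjusted p = 0.0553). Falls were called at peaks near Snx5 (-0.63), a retromer partner, Rab40c (-1.31), Rab11a (-0.98), Rab3ip (-0.83), an exchange factor for Rab8, Ehd4 (-0.64) and Rab33b (-1.08). The loci of Snx5 (-0.43), Snx29 (-0.31) and Rab6b (-0.42) fell. The Snx5 peak and locus kept their calls without each library. The Rab40c, Rab11a and Rab3ip peaks lost theirs without PBP 3_4 (adjusted p of 0.0969 to 0.454), the Rab33b peak without PBP 1_2 or PBL 4_5 (adjusted p of 0.0514 to 0.289), and the Ehd4 peak without PBP 1_2, PBP 3_4 or PBL 4_5 (adjusted p of 0.0534 to 0.0863). The Snx29 locus lost its call without PBP 3_4 or PBL 4_5 (adjusted p of 0.0577 to 0.224), and the Rab6b locus without PBP 1_2, PBP 3_4, PBL 3_4 or PBL 4_5 (adjusted p of 0.0572 to 0.268). The Snx18 locus call was lost when peaks within 10000 bp (0.19, adjusted p = 0.353) or 1000 bp (0.42, adjusted p = 0.111) were summed. The Rab27a, Rab21, Snx29 and Rab6b calls were lost within 10000 bp (adjusted p of 0.121 to 0.614), and these and the Rab3gap2 locus call within 1000 bp (adjusted p of 0.0693 to 0.691).

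Ehd1, an ATPase of endocytic recycling, was one of the 2 genes with a peak called for a difference in response between the arms. Its start-site peak (chr19:6275912-6277149, with a start of Gm14963 within 1 kb) held 48.4 and 54.9 CPM in PP, 36.6 and 31.7 in PBP, 60.5 and 39.9 in PL, 73.05, 74.02 and 74.8 in PBL, 43.4 and 52.7 in LL, and 44.2 and 42.7 in LBL. The 3 PBL libraries were the highest of all 13 and the 2 PBP libraries the lowest, while PP, PL, LL and LBL overlapped or lay between them. It rose by 1.11 ± 0.17 (log2 ± SE, 2.15-fold, adjusted p = 1.67e-07) in PBL and was at -0.05 ± 0.20 (SE) in PL. The difference between the arms was 1.16 ± 0.27 (SE, adjusted p = 0.0448 by edgeR), one of 0.0746% of all peaks (28) called for this difference and one of 2 (0.388%) among these genes. PBP was 0.59 below PP on the log2 scale (adjusted p = 0.311) and PBL 0.57 above PL (adjusted p = 0.0871), neither of them called. The call was kept under 4 of 13 alternatives, with values of 0.88 to 1.47. It was lost without PP 1_2, PP 3_4, PBP 1_2, PBP 3_4, PL 3_4, PBL 1_2, PBL 3_4 or PBL 4_5 (adjusted p of 0.0555 to 0.319) and by DESeq2. Over these genes the count for this difference was 14 peaks and 12 loci without PL 1_2.

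Further Ehd1 peaks were also higher in PBL than in PBP. A peak 1599 bp downstream of a start (chr19:6299513-6299901) held 29.5 and 34.9 CPM in PP, 23.2 and 19.6 in PBP, 30.8 and 34.6 in PL, 37.9, 44.4 and 42.5 in PBL, 29.9 and 30.98 in LL, and 25.3 and 26.4 in LBL, a rise of 0.96 in PBL (adjusted p = 3.03e-04) and 0.02 in PL. A further start-site peak rose in PBL by 0.54, lost without PBP 1_2, PBP 3_4, PBL 1_2 or PBL 3_4 (adjusted p of 0.0754 to 0.382). Over its 4 peaks the locus rose by 0.86 in PBL (adjusted p = 3.48e-09) and was at 0.06 in PL. The locus difference between arms was 0.80 (adjusted p = 0.0363, one of 0.124% of all loci and 0.645% of these), kept under 8 of 15 alternatives. It was lost without PP 1_2, PP 3_4, PBP 3_4, PL 3_4, PBL 1_2 or PBL 4_5 (adjusted p of 0.0521 to 0.157) and by DESeq2. Ehd4, a relative, was at -0.20 and 0.00, and neither was called.

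Rab37, a Rab of granule and cytokine secretion, was the other peak called for a difference between arms, at its start site (chr11:115153598-115154479). Libraries held 45.2 and 49.9 CPM in PP, 23.2 and 27.9 in PBP, 26.1 and 18.1 in PL, 30.9, 33.3 and 26.8 in PBL, 23.96 and 26.96 in LL, and 20.8 and 28.4 in LBL. The 2 PP libraries stood above the other 11, which overlapped across groups. PL was below PP by 1.12 on the log2 scale (adjusted p = 6.18e-04), PBL was at 0.24 against PBP, and the difference was 1.36 ± 0.32 (SE, adjusted p = 0.0469). PBP, which received no LPS, was 0.91 below PP (adjusted p = 0.0867), which was not called. The PL call was lost without PL 3_4 (adjusted p = 0.0575). The call for the difference was kept under 5 of 13 alternatives and lost without PP 1_2, PP 3_4, PBP 1_2, PBP 3_4, PL 3_4, PBL 1_2 or PBL 3_4 (adjusted p of 0.0896 to 0.319) and by DESeq2. The locus fell by 0.87 in PL, lost without PP 1_2 or PL 3_4 (adjusted p of 0.0658 to 0.101), and its difference between arms was not called (adjusted p = 0.0985).

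A second LPS 5 weeks after the first was set against a first LPS given at the same time. In the repopulated arm (LBL against PBL), 5 peaks of these genes rose and 4 fell (1.74%, beside 1.9% of all peaks), and 2 loci fell (1.29%, beside 1.21%). With the LBL libraries summed to 1, 5 peaks and 1 locus were called, and leaving out 1 library gave 2 peaks (without LBL 3_4), 3 (LBL 1_2), 4 (PBL 3_4) or 5 (PBL 4_5), each with 1 locus, and 8 peaks and 2 loci without PBL 1_2. DESeq2 called 2 of the 9 peaks, at Vps35l and Rab11fip4os1, and 1 of the 2 loci. The microglial marker sum was 274 to 295 CPM in PBL and 338 to 392 in LBL, the astrocyte one 56.1 to 62.4 and 70 to 79.5, and Cd3d 12.3 to 14.1 and 11 to 11.6, and their part in these results was not tested. Vps35l encodes a subunit of the retriever complex, which returns receptors to the surface. Of its 3 start-site peaks the least open per kb (chr7:118821284-118821809) held 14.7 and 10.98 CPM in PP, 18.3 and 16.6 in PBP, 8.89 and 14.9 in PL, 10.5, 9.25 and 7.33 in PBL, 19.5 and 20.1 in LL, and 28.6 and 24.4 in LBL. Both LBL libraries were above all others, and it rose over PBL by 1.58 ± 0.25 (log2 ± SE, 2.99-fold, adjusted p = 1.43e-05), under all 10 alternatives. The other two start-site peaks were at 71 and 76.3 CPM per kb in PBL and 64.5 and 82.5 in LBL, log2 differences of -0.16 and 0.18 that were not called. In PBL the first peak lay 1.000 below PBP (adjusted p = 0.012), a call lost without PBP 1_2, PBP 3_4 or PBL 4_5 (adjusted p of 0.0573 to 0.176), and LL was 0.71 above PL, which was not called (adjusted p = 0.434).

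The largest called fall from PBL to LBL was at a peak assigned to Rab11fip4os1, an antisense transcript, and lying in intron 1 of 14 of Rab11fip4, which encodes a Rab11 effector (chr11:79611005-79611585). It held 8.41 and 9.98 CPM in PP, 9.76 and 8.30 in PBP, 10.1 and 12.2 in PL, 14.05, 19.4 and 17.6 in PBL, 2.99 and 4.83 in LL, and 2.60 and 4.06 in LBL. LBL and LL were the lowest groups, with no library above 4.83 CPM, and LBL was 2.32 ± 0.35 (SE) below PBL on the log2 scale (adjusted p = 5.83e-06, under all 10 alternatives). LL was 1.47 below PL, which was not called (adjusted p = 0.111). In PBL the peak rose by 0.93 over PBP, lost without PBP 1_2, PBP 3_4, PBL 3_4 or PBL 4_5 (adjusted p of 0.0605 to 0.217). Its locus fell by 0.67 (adjusted p = 0.0412), a call lost without PBL 3_4, PBL 4_5, LBL 1_2 or LBL 3_4 (adjusted p of 0.0883 to 0.5) and with the LBL libraries summed (adjusted p = 0.113). Within 10000 bp the locus was at -0.17 (adjusted p = 0.847) and within 1000 bp at -0.16 (adjusted p = 0.909).

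The Ehd1 start site fell from PBL to LBL by 0.77 on the log2 scale (adjusted p = 8.17e-04), a call lost without LBL 3_4 (adjusted p = 0.0961). The Ehd1 peak 1599 bp from a start fell by 0.70, lost without PBL 3_4, PBL 4_5, LBL 1_2 or LBL 3_4 (adjusted p of 0.0921 to 0.25), and the locus by 0.61 (adjusted p = 6.03e-05), under all 12 alternatives, with the LBL libraries summed among them (adjusted p = 0.00176). DESeq2 called neither the fall at the Ehd1 start site (adjusted p = 0.131) nor that at the Ehd1 peak 1599 bp away (adjusted p = 0.54). An intergenic peak 7721 bp from a start of Snx13 (chr12:35038620-35039465) held 35.8 and 44.9 CPM in PP, 41.5 and 45.3 in PBP, 24.9 and 35.1 in PL, 18.96, 23.6 and 24.6 in PBL, 34.9 and 34.6 in LL, and 44.2 and 36.05 in LBL. It fell by 0.92 in PBL (adjusted p = 2.96e-04) and LBL was 0.79 above PBL (adjusted p = 0.00975), the latter lost without LBL 1_2 or LBL 3_4 (adjusted p of 0.0569 to 0.269). The Snx13 difference between LBL and PBL was not called by DESeq2 (adjusted p = 0.312). Peaks in Tbc1d14 intron 2 (0.79) and near Rab7 (0.94) were called higher in LBL by edgeR and not by DESeq2 (adjusted p = 0.612 and 0.763). The first was lost without PBL 3_4, PBL 4_5, LBL 1_2 or LBL 3_4 (adjusted p of 0.0654 to 0.288) and with the LBL libraries summed (adjusted p = 0.0546), and the second without PBL 1_2, PBL 3_4, PBL 4_5, LBL 1_2 or LBL 3_4 (adjusted p of 0.0628 to 0.449) and with them summed (adjusted p = 0.0671).

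**Figure D4:**
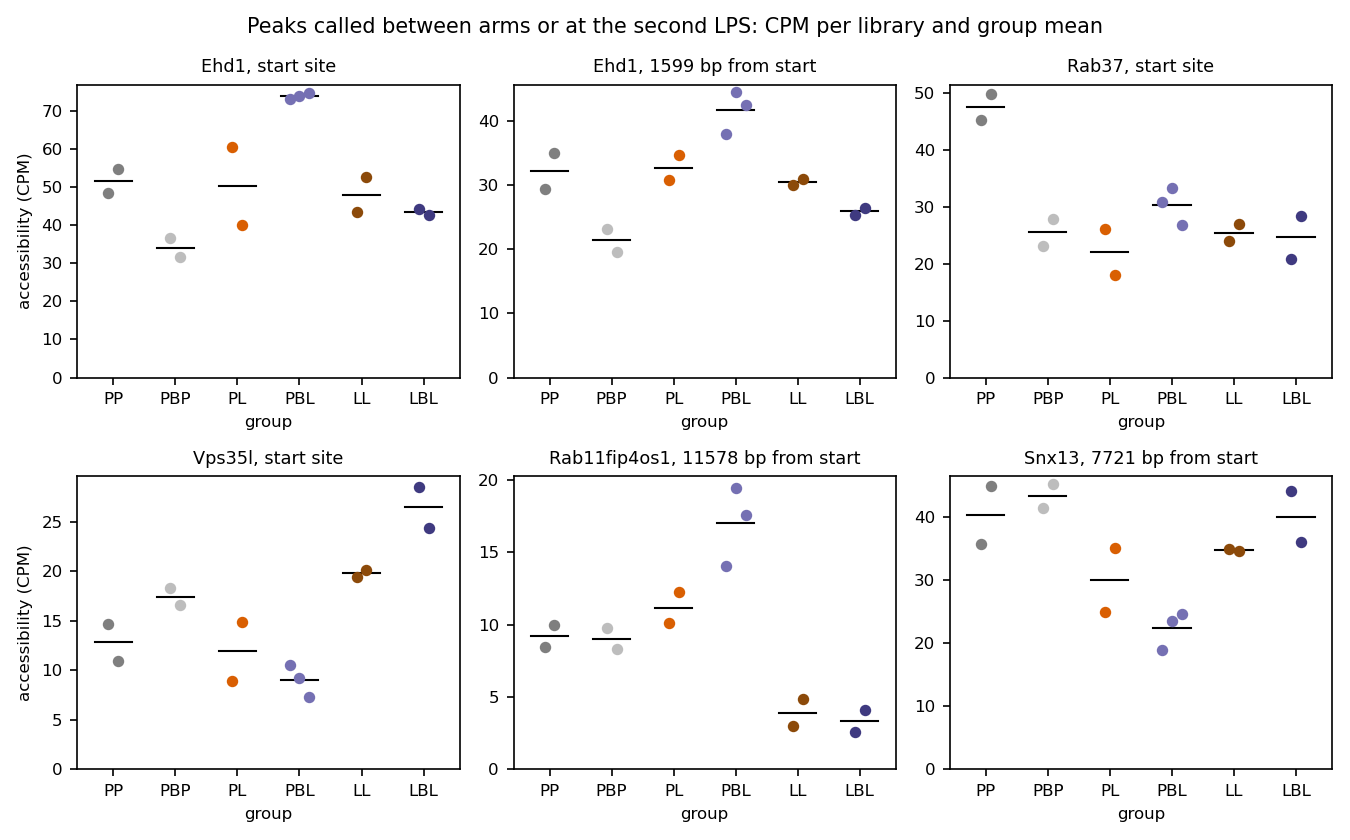
Accessibility in CPM (y axes, from 0) of 6 peaks in each of the 13 libraries, by group; points are libraries and bars group means. PBL is highest at both Ehd1 peaks, PP at Rab37 and LBL at Vps35l, and LL and LBL are lowest at Rab11fip4os1, none of their libraries above 4.83 CPM.

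In the original arm no peak or locus of these genes was called between LL and PL (0, beside 0.064% of all peaks and 0.0437% of all loci). At an unadjusted p under 0.05 there were 35 peaks and 9 loci, and DESeq2 called 0. Without PL 1_2 the counts were 5 peaks and 3 loci. The difference between arms in this comparison was called at 0 peaks and 0 loci of these genes and at 0% of all peaks and 0% of all loci, with 31 and 8 at an unadjusted p under 0.05 and 0 by DESeq2. At the Ehd1 start it was -0.73 (adjusted p = 0.51), so that the fall in LBL was not shown to differ from LL.

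Between repopulated and original microglia within a treatment no peak or locus of these genes was called by edgeR. For PBP against PP the count was 0, beside 0.16% of all peaks and 0.116% of all loci, with 44 peaks and 16 loci at an unadjusted p under 0.05. For PBL against PL it was 0, beside 0.0826% and 0.342%, with 48 and 19, and without PL 1_2 it was 11 peaks and 12 loci. For LBL against LL it was 0, beside 0.0506% and 0.0947%, with 32 and 7. DESeq2 called 0 in each of these. These comparisons share libraries with the ones above. With 2 or 3 pools a group, small differences could be missed.

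By role, the loci called after the first LPS came from several lists, and their counts stand beside 10.6% of all loci called in PL and 7.47% in PBL, in either direction. Of 28 TBC1D genes 4 rose and 1 fell in PL and 2 rose in PBL, with median log2 fold changes of 0.02 and 0.06 beside -0.000952 and 0.00342 over all loci. Sorting nexins with a BAR domain had 1 of 12 loci higher in PL and 1 higher and 1 lower in PBL, and the other sorting nexins 3 of 17 higher in PL and 1 higher and 1 lower in PBL. Of 23 secretory and Golgi Rabs 1 rose and 1 fell in PL and 2 rose and 1 fell in PBL. Among late endosome and lysosome Rabs 0 of 7 were called in PL by edgeR, with 0 at an unadjusted p under 0.05 and 0 by DESeq2, and 1, Rab7b, was called in PBL. The 6 recycling Rabs, 8 ESCRT, 5 retromer and 4 GARP and EARP genes had 0 called loci in either comparison by edgeR and 0 by DESeq2. At an unadjusted p under 0.05 they had 0, 3, 0 and 1 in PL and 1, 0, 0 and 0 in PBL. The retromer list also held Vps35l and Vps26c, which belong to the retriever complex and not to retromer. Rab4b, higher in PL, was counted with the early endosome and fast recycling Rabs and not with the recycling Rabs. Of the 7 HOPS and CORVET genes Vps39 fell in PL, with a list median of -0.28 in PL and -0.11 in PBL.

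Several genes named whatever their values had no called locus in any comparison. Rab7, the Rab of late endosomes, was at 0.01 in PL and -0.17 in PBL, Rab11a at -0.20 and -0.29, and Rab8b at 0.02 and 0.16. Rab11a was called in PL without PL 1_2 (-0.42, adjusted p = 0.0182) and in PBL without PBP 1_2 (-0.45, 0.0382). Rab20, which acts on phagosomes, was at 0.12 and 0.33, Rab32 at -0.20 and -0.22, and Rab11fip1 at 0.63 and 0.60. Vps35, the core of retromer, was covered by 1 small peak of 181 bp, with group means of 31.1 (PL) to 45.6 (LBL) CPM per kb. The ESCRT gene Vps37b was at 0.04 and -0.12, Snx9 at -0.37 and -0.07, and Snx20 at 0.19 and 0.39. Snx9 was called in PL without PL 1_2 (-0.81, adjusted p = 0.0181) and Snx20 in PBL without PBL 4_5 (0.50, 0.0383).

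Partners outside the symbol rule were also called at a few loci, again beside 10.6% of all loci in PL and 7.47% in PBL. Of 36 tested loci of Rab exchange factors, GDP dissociation inhibitors and other GAPs, 3 rose in PL (Evi5l, Mon1b and Rin2) and 0 were called in PBL by edgeR, with 6 at an unadjusted p under 0.05 and 0 by DESeq2. Of 61 loci of endosomal effectors and machinery, 1 rose and 4 fell in PL (Pacsin2 higher; Arl8a, Rilp, Rabep2 and Rilpl2 lower), and 1 rose and 2 fell in PBL (Pacsin2 higher; Commd8 and Pik3r4 lower). DESeq2 called 2 of these 61 loci in PL and 1 in PBL. Pacsin2, a membrane-bending partner of EHD proteins, rose by 0.67 in PL and 0.54 in PBL. Rilp, which links Rab7 to dynein, fell in PL by 0.73 on the log2 scale and was at -0.25 in PBL.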

How the data were processed

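The authors deposited an estimated count for each peak and library, made in steps of 0.5 (49.1% to 50.1% of values in a library are not whole), and these were rounded to whole numbers. Per the submitters' processing notes, tools were MACS2 2.1.1 and Bowtie2 2.2.6, with ChIPseeker 1.38, HOMER 4.9.1, Picard 1.126, cutadapt 1.9.1 and SAMtools 1.7, on builds GRCm38 and mm10. The counting tool and whether reads were shifted for the transposase are not given in the sources used here. Peak coordinates are those of the deposited table.

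Peaks up to 50000 bp from a start were used peak by peak and summed per gene symbol. All 13 libraries entered one edgeR 4.0.16 quasi-likelihood fit (TMM scaling, filterByExpr with a minimum count of 10, robust dispersions) with a mean for each of the 6 groups. p-values were adjusted by Benjamini-Hochberg over all tested peaks or loci, called at 0.05. CPM is the count in peaks scaled to the TMM-adjusted library size. Alternatives were DESeq2 1.42.0, RLE factors, no filter, a replicate block, an isolation day term, sums within 10000 and 1000 bp, each library left out and, chosen after seeing the data, LBL summed to 1. For PL against PP the day term and leaving out PL 1_2 are both counted as alternatives, though they repeat each other. The scripts were tested on simulated data. Depth was 927840 to 2772688 counts. The p-values rest on a spread between pools estimated over all 6 groups together, not within the compared groups alone. Pairs within a group differed from 0.996 (LBL) to 2.04 (PL) times counting noise (chi-square per degree of freedom).

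The text names, for each comparison, up to 8 peaks in each direction with the smallest p (1 per gene), up to 5 loci in each direction, all differences between arms and 18 genes whatever their values. The other called peaks and loci it names were added after their values were seen. Members and lists were chosen with earlier results of these data known.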

Additional observations from a re-analysis of the deposited data

Results flagged for a closer look

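A difference between repopulated and original microglia in the response to a first LPS was called by edgeR, in a test of the difference itself, at 2 peaks and 1 locus of these genes, beside 28 of all peaks (0.0746%) and 17 of all loci (0.124%). DESeq2 called 0 of them. The Ehd1 peak call was kept under 4 of 13 alternatives, the Rab37 peak call under 5 of 13 and the Ehd1 locus call under 8 of 15. At the Ehd1 start-site peak the log2 fold change was 1.16 higher in the repopulated arm, and over the Ehd1 locus it was 0.80 higher. At the Rab37 start-site peak it was 1.36 higher in the repopulated arm, with 0.24 in PBL against PBP and -1.12 in PL against PP. At both peaks PBP, which received no LPS, lay below PP, without that difference being called. PBP and PBL were isolated on different days and sorters, which cannot be told apart from the response.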

How the results depend on the processing

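Of the 1835 recomputed values of single peaks and loci, 1375 kept their side of the threshold, 449 lost their call and 7 gained one. A further 4, called in the main fit or the alternative, changed sign. A change of sign at a value called in neither fit was counted among the 1375. Loci of genes named whatever their values that were uncalled and stayed so were counted there too. The 1375 are therefore not a count of calls that were kept. Those 4 sign changes were at the Tbc1d2b locus, -0.20 in PL against PP within 1000 bp and -0.16 and -0.23 in PBL against PBP within 10000 and 1000 bp, and at the Rab31 locus, -0.12 in PL against PP within 1000 bp. DESeq2 called 11 peaks and 8 loci in PL against PP, 19 and 6 in PBL against PBP, 2 and 1 in LBL against PBL and 0 and 0 for the difference in LPS response. Within 10000 bp there were 7 loci in PBL against PBP and 1 in LBL against PBL, and within 1000 bp 5, 5 and 1 in PL against PP, PBL against PBP and LBL against PBL and 2 for the difference in LPS response. With the isolation day as a term PL against PP had 72 peaks and 30 loci. With the LBL libraries summed LBL against PBL had 5 peaks and 1 locus. Leaving out 1 library gave 10 to 72 peaks and 5 to 30 loci in PL against PP, 22 to 56 and 7 to 13 in PBL against PBP, 2 to 8 and 1 to 2 in LBL against PBL, 0 to 5 and 0 to 3 in LL against PL, 0 to 11 and 0 to 12 in PBL against PL, 0 to 14 and 0 to 12 for the difference in LPS response, and 0 to 1 and 0 to 2 for that in second LPS. The pool numbers did not pair libraries (correlations of deviations from -0.017 to 0.094). With the replicate block there was 1 peak in LL against PL, 5 peaks in LBL against PBL and 2 loci for the difference in LPS response. The cause of these changes was not tested. With 2 or 3 pools a group, depth and pool number limit what could be called.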
